A study of Mus musculus with 18 samples.

Results

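CREB1 and JUND were compared for the DNA sequences they bind when every cytosine is unmodified. The comparison used 4 arrays, 2 for CREB1 and 2 for JUND, of the 18 protein binding microarrays in the series, chosen by protein name and by the cytosine label. A protein binding microarray carries many double-stranded DNA probes, and a tagged protein bound to them is read by fluorescence. Both proteins were mouse bZIP DNA-binding domains with 15 residues on either side, fused to glutathione S-transferase and made in a cell-free translation mix. Each array held 40330 probes with 35 variable bases, and in these groups the primer-extended strand carried plain cytosine, as did the printed strand. The labels name no partner protein and do not tell whether replicate arrays used different batches of protein. The p-values therefore cover the spread between arrays alone, which may be technical.

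bZIP proteins bind DNA as dimers through a long helix whose basic part lies in the major groove, and each subunit reads one half-site. CREB1 acts in the response to cyclic AMP and is known for the cAMP response element (CRE), in which TGA and TCA half-sites stand a pair of bases apart. JUND is a JUN-family subunit of AP-1, which is known for the TPA response element, in which the same half-sites are separated by a single C or G. JUN proteins bind this site as homodimers and, more tightly, with a FOS partner.

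The sequences that carry the comparison were the CRE palindrome, the AP-1 sites in the flanks JUND ranked highest, and a hybrid that has one TGA half-site and one GCA half-site. They are shown 5′ to 3′ as they read on the primer-extended strand, with the bases of the site in capitals and an outer base in lower case.
CRE palindrome: TGACGTCA
AP-1 site, outer T: TGAGTCAt
AP-1 site, outer T, other centre: TGACTCAt
AP-1 site, outer A: aTGACTCA
AP-1 site, outer A, other centre: aTGAGTCA
TGA and GCA hybrid, outer T: TGACGCAt
TGA and GCA hybrid, outer A: aTGACGCA

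The authors deposited a z-score for each 8-base sequence (8-mer) on each array, a linear score centred near 0, for 65530 8-mers. Of these, 64454 were on 10 or more probes of the primer-extended strand and were kept, and the median 8-mer was on 17 probes (5th percentile 14, 95th percentile 21). An 8-mer and its reverse complement have separate z-scores from largely separate probes. Z-scores were ranked within each array, with rank 1 the highest, and each rank was turned into a normal score, the value a standard normal distribution has at that rank. A difference below is the mean normal score of CREB1 minus that of JUND, and it was tested with limma across all 64454 8-mers, with one mean per group and a spread shared by the 18 arrays. P-values were two-sided and adjusted by the Benjamini-Hochberg method, and 8-mers with an adjusted p of at most 0.05 are called.

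The 2 CREB1 arrays ranked 8-mers much alike and the 2 JUND arrays less so. Spearman's rho between z-scores was 0.785 for the CREB1 pair and 0.592 for the JUND pair, over 64454 8-mers that share probes and are not independent. Between a CREB1 and a JUND array it lay between 0.334 and 0.568. Of the 100 highest 8-mers, 91 were shared by both CREB1 arrays, 47 by both JUND arrays, and 25 to 35 by a CREB1 and a JUND array. JUND replicate 2 was the dimmest array: its median probe signal was 713, against 1961 for JUND replicate 1 and 1612 and 2135 for CREB1, and its brightest probe read 13385.5, whereas the other 3 arrays had saturated probes. The 2 orientations of a site also disagreed most on that array. Of the 100 highest 8-mers that were not palindromes, the other orientation stood in the top 500 for 96 of 98 and 97 of 97 on the CREB1 arrays, for 86 of 99 on JUND replicate 1 and for 34 of 97 on JUND replicate 2. The part of array quality in the results was not tested.

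**Figure D1:**
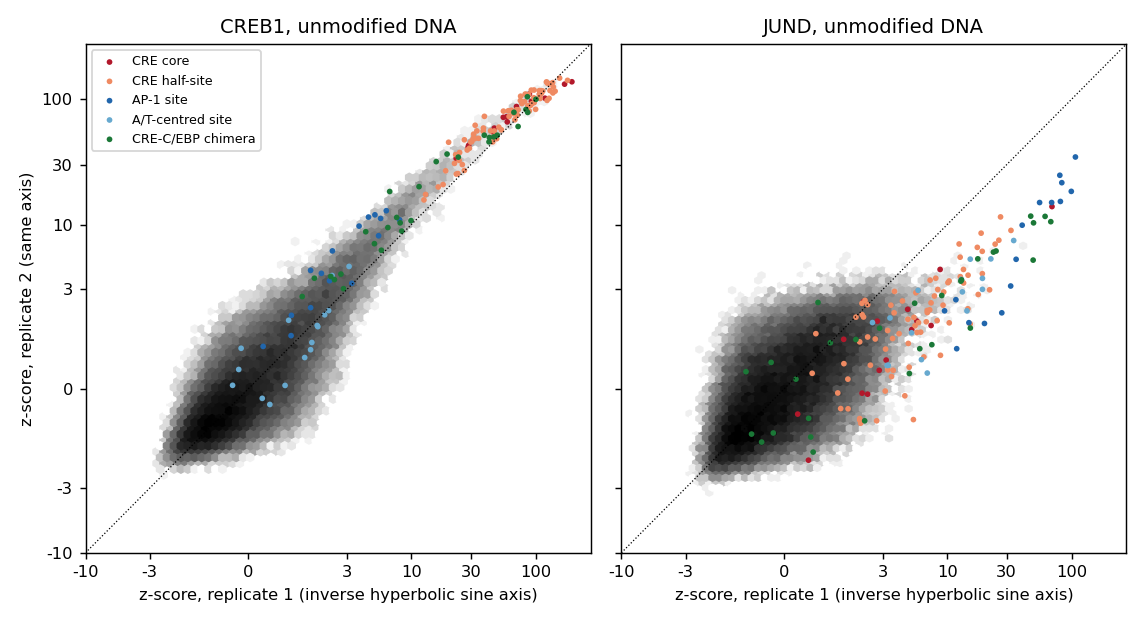
Deposited z-score of each kept 8-mer on replicate 1 (x axis) against replicate 2 (y axis) for CREB1 (left) and JUND (right), on inverse hyperbolic sine axes. Grey hexagons count all 64454 8-mers on a log shade, coloured points are 5 lists of bZIP sites (A/T-centred, TGATTCA; CRE-C/EBP chimera, the hybrid TGACGCA or GACGCAA), and the dotted line marks equal values. CREB1 z-scores lie near the line up to 193 and 136 for the CRE palindrome, and JUND z-scores are lower on replicate 2, with AP-1 sites at the upper end.

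The top of each ranking held a different mix of sites, around the same TGA half-site. Of the 91 8-mers in the top 100 of both CREB1 arrays, 86 held TGAC or its complement GTCA, all 91 held a CG dinucleotide, and 59 held ACGT. Of the 47 in the top 100 of both JUND arrays, 42 held TGAC or GTCA, 28 held CG, and 10 held ACGT. All but 1 of the 47 held TGA or TCA, and the exception, ACCCGCCC, matches a GC box, the C- and G-rich site that Sp-family factors are known for. Sites with both half-sites, TGA and TCA, made up 13 of the JUND 8-mers and 1 of the CREB1 8-mers. Over all kept 8-mers, 2544 held TGAC, 1277 held ACGT and 24616 held CG.

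The CRE palindrome was at the top for both proteins. TGACGTCA had z-scores of 193 and 136 on the CREB1 arrays and 69.1 and 13.9 on the JUND arrays. Its ranks were 1 and 3 for CREB1 and 6 and 8 for JUND, so it stood within the highest 10 on each of the 4 arrays. The difference in normal score was 0.42 (SE 0.34, 95% confidence interval -0.28 to 1.11, n = 2 arrays each), which did not pass the test (adjusted p = 0.531, limma). This result depended on the processing: under 4 of 18 alternatives the palindrome was called higher in CREB1, and under 14 it stayed uncalled. The median background-subtracted signal of its probes was 57.8 and 30.5 times the array median for CREB1 and 9.15 and 2.82 times for JUND, and 4 and 8 of its 19 probes were saturated on the CREB1 arrays, too few to set these medians.

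AP-1 sites were far higher in the JUND ranking. TGAGTCAT had z-scores of 8.05 and 10.9 for CREB1 and 106 and 34.5 for JUND, where it was the highest of all 8-mers on both arrays, against CREB1 ranks of 1091 and 1215. The groups did not overlap, and the difference was -2.22 (SE 0.65, adjusted p = 0.0467, limma). TGACTCAT ranked 2 and 4 for JUND and 2311.5 and 1153 for CREB1 (difference -2.02, SE 0.50, adjusted p = 0.0187, limma). ATGACTCA, the reverse complement of TGAGTCAT, ranked 3 and 3 for JUND and 1794.5 and 1710.5 for CREB1 (difference -2.03, SE 0.50, adjusted p = 0.0184, limma). ATGAGTCA, the reverse complement of TGACTCAT, ranked 5 and 2 for JUND and 1956.5 and 1095 for CREB1. Its difference of -1.94 (SE 0.66) missed the threshold (adjusted p = 0.0895, limma). TGACTCAC had the largest difference of the AP-1 sites, -2.37 (SE 0.47, adjusted p = 0.00467, limma), with ranks of 10 and 6.5 for JUND and 9931 and 3529 for CREB1. In the other orientation, GTGAGTCA, the difference was -1.98 (SE 0.59) and missed the threshold (adjusted p = 0.0545, limma).

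The 16 8-mers that hold TGACTCA or TGAGTCA form the AP-1 list, and all 16 were kept. Of these, 6 passed the test as higher in JUND and 0 as higher in CREB1, and 14 had an unadjusted p under 0.05. Across all 8-mers, 1.09 percent were called higher in JUND and 2.69 percent higher in CREB1. The difference was negative for all 16, with a median of -1.71 against -0.04 over all 8-mers. JUND ranked 15 of the 16 above both CREB1 arrays on both of its own, an arrangement seen for 26.3 percent of all 8-mers. The exception was TTGAGTCA, with ranks of 71 and 5665 for JUND and 5760 and 2380 for CREB1. The median rank of the list was 17 and 34.5 for JUND and 4620.5 and 2954.5 for CREB1, and 13 and 9 of its members stood in the JUND top 100, against 0 and 0 for CREB1. On the CREB1 arrays the median z-score of the list was 2.76 and 5.22, where that of all 8-mers was 0.01. The 6 calls depended on every array: 0 were left without CREB1 replicate 1, without CREB1 replicate 2 or without JUND replicate 2, and 1 without JUND replicate 1. When the 2 orientations of each site were merged, 7 of the 8 pairs in the list were called higher in JUND, and on log2 median signal in place of ranks 1 of the 16 was.

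The JUND ranks of the AP-1 sites differed with the base just outside the site. With A before TGA (or T after TCA), the 4 8-mers ranked 1 to 5 on JUND replicate 1 and 1 to 4 on replicate 2. With G before TGA (or C after TCA), they ranked 4 to 16 and 5 to 14. With C outside (or G on the other side) the ranks were 18 to 40 on replicate 1 and 55 to 5883.5 on replicate 2, and with T outside (or A on the other side) they were 71 to 159 and 1348 to 14330. The purine-flanked sites were thus above all the others on both JUND arrays. On the CREB1 arrays the same sets spanned 1091 to 2311.5 and 1095 to 1710.5 for A, and 5760 to 25845 and 2380 to 16664 for T.

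JUND also ranked high the sites whose single centre base is A or T. The 16 8-mers that hold TGATTCA or TGAATCA had median ranks of 192.75 and 1820 for JUND and 10647.5 and 16356 for CREB1, with a median difference of -1.66 that was negative in all 16. Of the 16, 6 were called higher in JUND (37.5 percent, against 1.09 percent of all 8-mers). ATGATTCA was the highest, with ranks of 19 and 21 for JUND and 3738 and 3268 for CREB1. Its difference was -1.82 (SE 0.47, adjusted p = 0.0236, limma), and it was singled out after its values were seen. The 4 members with an outer A ranked 19 to 69 and 21 to 226.5 for JUND, and the 4 with an outer G ranked 42.5 to 92 and 252 to 2962.5. With 1 array at a time left out, 0 to 2 members of the list were called higher in JUND.

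**Figure D2:**
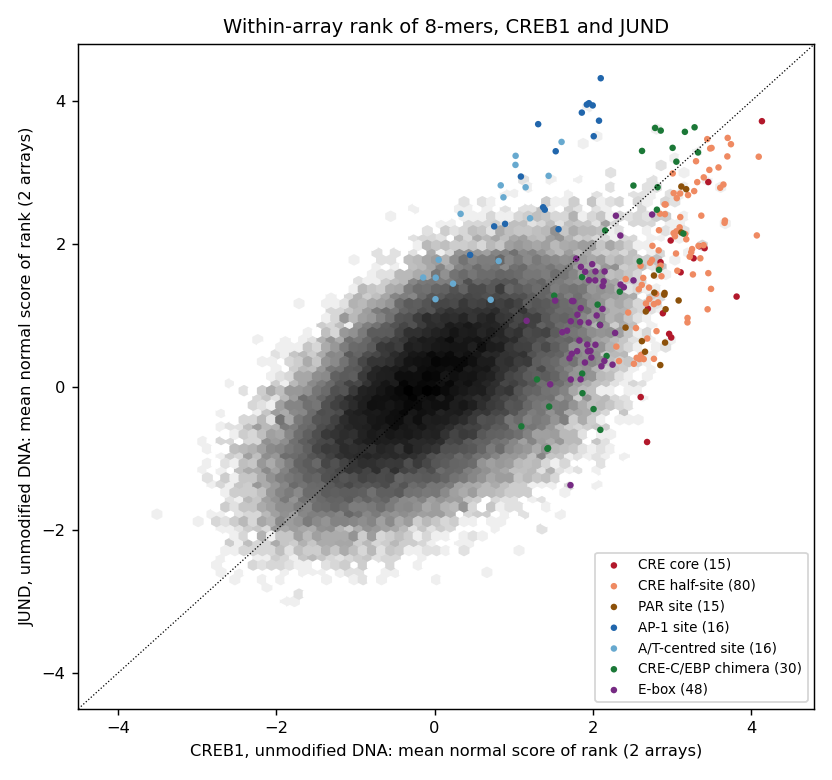
Mean normal score of rank over the 2 CREB1 arrays (x axis) against that over the 2 JUND arrays (y axis); higher is more strongly bound within an array. Grey hexagons count all 64454 8-mers on a log shade, coloured points are 7 site lists with their sizes in the legend, and the dotted line marks equal scores. AP-1 and A/T-centred sites lie above the line, CRE and PAR sites lie mostly below it, and the CRE palindrome is at the upper right.

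CRE sites other than the whole palindrome were mostly higher in the CREB1 ranking. The 15 8-mers that hold TGACGTC or GACGTCA form the CRE core list, which includes the palindrome itself. Their median ranks were 93 and 85 for CREB1 and 2036.5 and 7662.5 for JUND. All 15 differences were positive, with a median of 1.50. Of the 15, 9 were called higher in CREB1 (60 percent, against 2.69 percent of all 8-mers) and 0 higher in JUND. Both CREB1 arrays ranked all 15 above both JUND arrays, an arrangement seen for 26 percent of all 8-mers. GACGTCAC ranked 3 and 8 for CREB1 and 1457.5 and 19220.5 for JUND, with z-scores of 169 and 131 against 3.19 and 0.55 (difference 2.55, SE 0.42, adjusted p = 0.000961, limma). Without CREB1 replicate 1, CREB1 replicate 2 or JUND replicate 2, the number of CRE core calls was 2, 1 and 0, and without JUND replicate 1 it was 11.

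The remaining 80 8-mers with the CRE half-site TGACGT followed the same direction with smaller differences. Their median ranks were 75 and 68.5 for CREB1 and 436.75 and 4232.25 for JUND, with a median difference of 1.13. Of the 80, 18 were called higher in CREB1 (22.5 percent, against 2.69 percent of all 8-mers) and 0 higher in JUND. ACGTCACA ranked 2 and 2 for CREB1 and 292 and 3293.5 for JUND (difference 1.95, SE 0.45, adjusted p = 0.0126, limma). As examples of half-sites far down the JUND ranking, TGACGTTT ranked 185 and 143 for CREB1 and 8607.5 and 20905 for JUND (adjusted p = 0.0137, limma), and GAACGTCA ranked 267 and 264 against 19843 and 25097.5 (adjusted p = 0.00889, limma); both were chosen after their values were seen. Leaving out 1 array at a time moved the number of half-site calls between 0 and 35.

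Ranks of the CRE half-site also differed with the outer base. Among the 16 8-mers with A before TGACGT, including those read from the other strand, the median rank was 20.75 and 23.5 for CREB1 and 63.5 and 213.5 for JUND, and 1 was called higher in CREB1. With G before it the medians were 19 and 20.5 for CREB1 but 315 and 2661 for JUND, and 6 were called. With C before it they were 130.25 and 143 for CREB1 and 834 and 9485.5 for JUND, and 2 were called. With T before it they were 279.5 and 325.5 for CREB1 and 4206.5 and 16148 for JUND, and 6 were called. Over all 8-mers, 2.69 percent were called higher in CREB1. The medians for A and G were close on both CREB1 arrays, whereas on both JUND arrays the median for A was ahead of that for G.

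**Figure D3:**
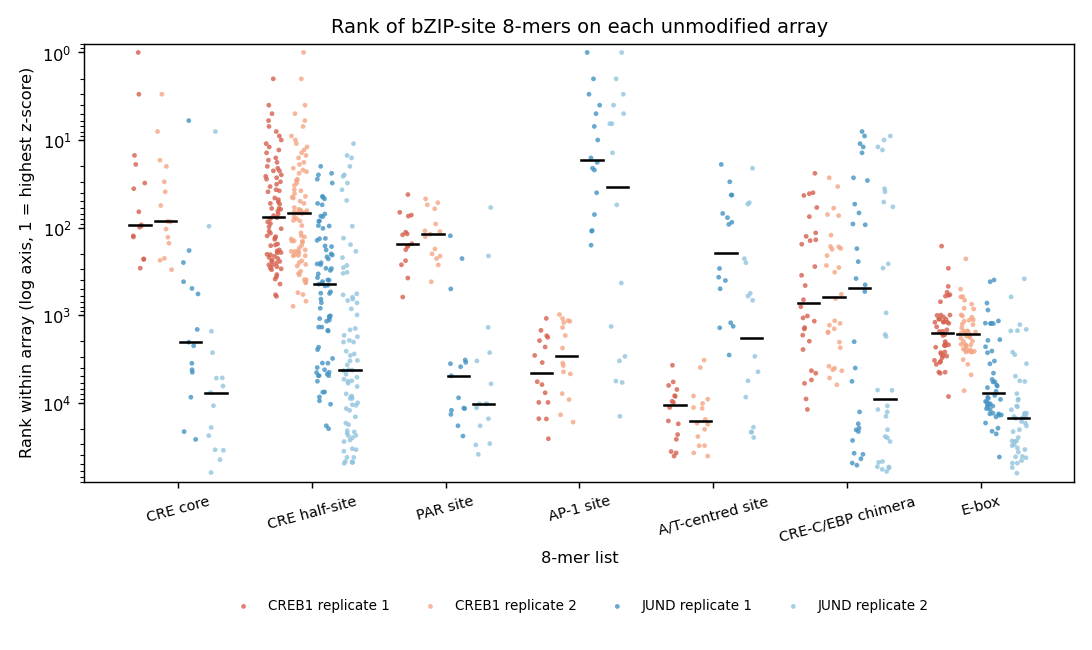
Rank within each array (log axis, 1 the highest z-score, drawn upwards) of every kept 8-mer in 7 site lists, with 1 column of points per array and a black bar at the median. The AP-1 columns sit at medians of 17 and 34.5 for JUND and 4620.5 and 2954.5 for CREB1, and the CRE core columns at 93 and 85 for CREB1 and 2036.5 and 7662.5 for JUND.

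Single-base changes of the palindrome changed the ranks of the proteins by different amounts at some positions. Positions are counted from 1 at the 5′ end of TGACGTCA, and because the site is a palindrome each change has a partner that is the same site read from the other strand. The 6 changes of position 1 or 8 left CREB1 ranks between 31 and 302.5 and put JUND at 496 or a larger rank number on replicate 1 and at 5242 or a larger one on replicate 2. Of these, 5 were called higher in CREB1. The largest was A8C (TGACGTCC), with ranks of 291 and 302.5 for CREB1 and 26304.5 and 44824 for JUND (difference 2.74, SE 0.51, adjusted p = 0.00288, limma). T1G, its partner on the other strand (GGACGTCA), had a difference of 1.60 (SE 0.55) that did not pass the test (adjusted p = 0.0952, limma).

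At position 3, A3G (TGGCGTCA) was called higher in CREB1, with ranks of 374 and 353 for CREB1 and 7159.5 and 44900 for JUND (difference 2.18, SE 0.49, adjusted p = 0.0105, limma). Its partner on the other strand, T6C (TGACGCCA), ranked 299 and 250 for CREB1 and 1097 and 25458.5 for JUND, a difference that missed the threshold (adjusted p = 0.0755, limma). T6A (TGACGACA) ranked 149 and 181 for CREB1 and 314.5 and 782 for JUND (adjusted p = 0.622, limma). Its partner on the other strand, A3T (TGTCGTCA), stood much lower for JUND, with ranks of 462 and 375 for CREB1 and 4199 and 27342.5 for JUND. That difference was 1.63 (SE 0.60) and did not pass the test either (adjusted p = 0.118, limma).

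A change of G to T at position 2, or of C to A at position 7, kept the site high for both proteins. G2T (TTACGTCA) ranked 32 and 11 for CREB1 and 20 and 15 for JUND, so the arrays overlapped, and the difference was -0.02 (95% confidence interval -0.78 to 0.73, adjusted p = 0.982, limma). C7A (TGACGTAA) ranked 4 and 1 for CREB1 and 55 and 31 for JUND (difference 0.87, 95% confidence interval 0.09 to 1.65 unadjusted, adjusted p = 0.195, limma). These 2 8-mers are the same site in opposite orientations, and it pairs a CRE half-site with a TTA half-site of the kind PAR-family bZIP factors are known for. The full PAR site was higher in CREB1. Of 15 8-mers with TTACGTA or TACGTAA, 10 were called higher in CREB1 (66.7 percent, against 2.69 percent of all 8-mers) and 0 higher in JUND. Their median ranks were 153 and 119 for CREB1 and 4935.5 and 10306.5 for JUND. The number of PAR calls was between 0 and 8 when 1 array at a time was left out.

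The 6 changes of the centre CG, at position 4 or 5, gave CREB1 ranks between 187 and 4495 on replicate 1 and between 172 and 4686.5 on replicate 2. The JUND ranks were between 182 and 4528.5 on replicate 1 and between 1146.5 and 50503.5 on replicate 2. TGATGTCA (C4T) ranked 187 and 172 for CREB1 and 582 and 43573 for JUND, a difference of 1.82 (SE 0.56) that missed the threshold (adjusted p = 0.0599, limma). TGACATCA (G5A), the same site from the other strand, ranked 313 and 241 for CREB1 and 182 and 1146.5 for JUND (difference 0.20, SE 0.49, adjusted p = 0.869, limma), so the JUND ranks of this site differed between orientations. Among the 16 8-mers with TGA and TCA a pair of bases apart, TGACGTCA alone was in the top 100 of both JUND arrays, as it was for both CREB1 arrays.

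**Figure D4:**
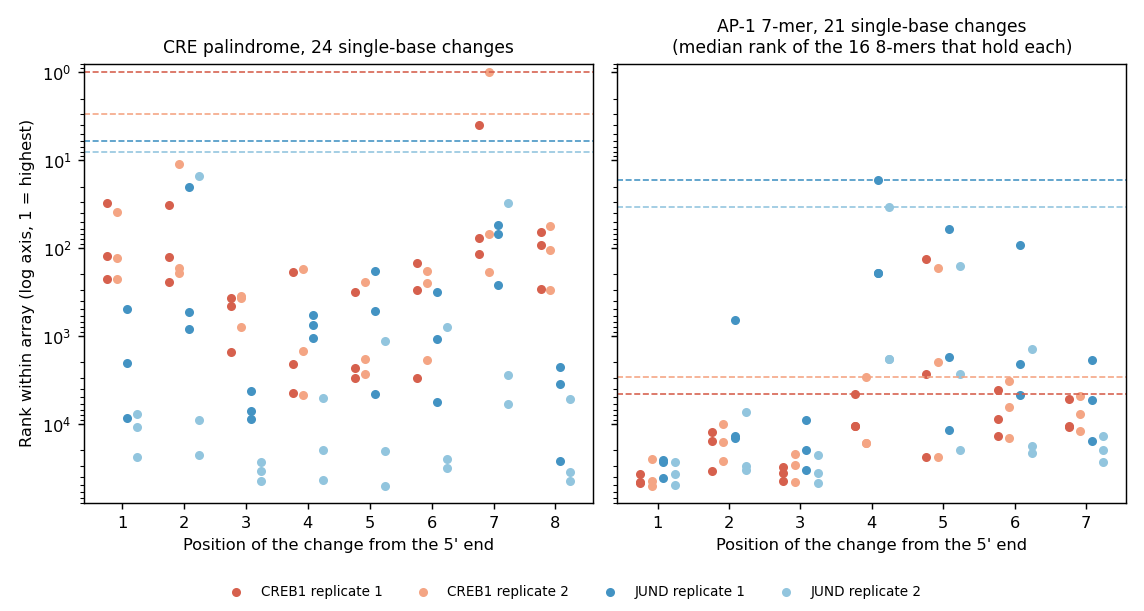
Rank within each array (log axis, 1 the highest, drawn upwards) after each single-base change, by position of the change from the 5′ end. The left panel shows the 24 changes of the CRE palindrome and the right panel the 21 changes of the 7-base AP-1 site, as the median over the 16 8-mers that hold it; dashed lines mark the unchanged site on each array. At positions 1 and 8 of the palindrome the JUND points lie at rank 496 or below it in the plot, and at position 5 of the AP-1 site 1 change brings CREB1 to medians of 132 and 169.5.

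Changes of the 7-base AP-1 site moved the JUND rank by amounts that differed with position. For TGACTCA, positions are counted from 1 at its 5′ end, and each value is the median over the 16 8-mers that hold the changed site. Changes at position 1 gave JUND medians between 25951 and 40910 on replicate 1, against 17 for the unchanged site, and changes at position 7 gave 1882 to 15808. Changes at position 4, which sets the centre base, gave 192.75 for C4A and C4T on replicate 1, and C4G is the same site read from the other strand. C6A (TGACTAA) kept medians of 91.5 and 1421.75 for JUND, against 4178 and 3228 for CREB1, and 1 of its 16 8-mers, TTAGTCAT, was called higher in JUND (ranks 13 and 19 against 1476 and 1233, difference -1.46, SE 0.41, adjusted p = 0.0406, limma). TTAGTCAT was singled out after its values were seen. With no base between the half-sites, the 48 8-mers with TGATCA had median ranks of 8133 and 18281.5 for JUND and 11092.5 and 11012 for CREB1, and 0 were called either way by limma, with 6 at an unadjusted p under 0.05.

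T5G, which turns TGACTCA into TGACGCA, gave a site that both proteins ranked high. The 16 8-mers with TGACGCA had median ranks of 132 and 169.5 for CREB1 and 61 and 158.75 for JUND, with a median difference of -0.07. The differences had both signs, from -0.84 for TGACGCAT to 1.20 for CTGCGTCA. JUND ranked 8 of the 16 above CREB1 without overlap, an arrangement seen for 26.3 percent of all 8-mers. CREB1 ranked 2 of the 16 above JUND without overlap, against 26 percent of all 8-mers. By limma 0 of the 16 were called in either direction, and 2 had an unadjusted p under 0.05. In this hybrid a single C stands between the TGA half-site and the GCA end known from C/EBP sites. TGCGTCAT ranked 41 and 27 for CREB1 and 9 and 10 for JUND, with z-scores of 85.1 and 104 against 60.9 and 11.6 (difference -0.35, 95% confidence interval -1.19 to 0.49, adjusted p = 0.687, limma). TGACGCAT ranked 141 and 209 for CREB1 and 8 and 12 for JUND (difference -0.84, 95% confidence interval -1.70 to 0.02, adjusted p = 0.270, limma). For JUND the 4 hybrids with A before the 7-base site or T after it, TGACGCAT, ATGACGCA and their reverse complements ATGCGTCA and TGCGTCAT, ranked between 8 and 14 on both arrays.

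The related 8-mers that hold GACGCAA without the whole TGACGCA did not stay high for JUND. In some of them the base before GACGCAA lies outside the 8-mer and is not fixed, so it can be T on some probes. The 14 8-mers with GACGCAA and no TGACGCA had median ranks of 2229.25 and 2197.25 for CREB1 and 20901 and 37353.5 for JUND, with a median difference of 1.70. Of the 14, 7 were called higher in CREB1, against 2.69 percent of all 8-mers, and 0 higher in JUND. TGACGCAA, which holds the whole hybrid and the C/EBP half-site GCAA, ranked 75 and 71 for CREB1 and 54 and 51 for JUND (difference -0.10, 95% confidence interval -0.73 to 0.54, adjusted p = 0.899, limma). On the deposited z-scores, which keep the wider range of the CREB1 arrays, TGACGCAA, TGCGTCAT and TTACGTCA were instead called higher in CREB1, by 60.8, 58.2 and 83.5 units of z. The C/EBP palindrome itself stood far below the hybrid for both proteins, though above the middle of each ranking. The 15 8-mers with TTGCGCA or TGCGCAA had median ranks of 13881 and 6573.5 for CREB1 and 8835.5 and 18569.5 for JUND. Their median z-scores were 0.98 and 2.47 for CREB1 and 1.31 and 0.58 for JUND. By limma 0 were called in either direction, with 0 at an unadjusted p under 0.05.

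The 8-mers ranked highest by both proteins were 5 CRE-type sequences. Ordered by the largest rank number each had on any of the 4 arrays, from 8 to 32, they were TGACGTCA, GATGACGT, ATGACGTA, ACGTCATC and TTACGTCA. GATGACGT ranked 6 and 9 for CREB1 and 24 and 11 for JUND. ATGACGTA ranked 8 and 5 for CREB1 and 25 and 20 for JUND. ACGTCATC, the reverse complement of GATGACGT, ranked 16 and 15 for CREB1 and 28 and 26 for JUND. Apart from the palindrome and TTACGTCA, all of them carried an A before TGACGT on one strand.

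At a z-score of at least 4 the JUND set was small and mostly contained in that of CREB1. CREB1 had 2515 such 8-mers on both arrays, and JUND had 82. Of the 82, 62 were also in the CREB1 set, which is 75.6 percent of the JUND set and 2.47 percent of the CREB1 set. A further 12 reached 4 on both JUND arrays and on neither CREB1 array. These 12, chosen by that rule after the z-scores were seen, included TGACTCAG, TGATTCAT, ATGAATCA, ATGAGTAA and 3 GC-box 8-mers, ACCCGCCC, CCCGCCCG and CCCGCCCT. On JUND replicate 2, the dimmest array, 137 8-mers reached 4, against 864 on JUND replicate 1 and 2696 and 3836 on the CREB1 arrays.

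Over all 64454 8-mers, 1732 were called higher in CREB1 and 703 higher in JUND, out of 12650 with an unadjusted p under 0.05, and the smallest called difference was 1.27. Calls higher in CREB1 made up 71.1 percent. With z-scores, log2 median signal or log2 signal after normexp background correction in place of ranks, that share was 87.3, 96.9 and 85.9 percent, from 5720 and 831, 4717 and 149, and 4465 and 735 calls. With quantile-normalized log2 signal it was 72.1 percent, from 1875 and 725 calls. Without CREB1 replicate 1 there were 187 and 106 calls, without CREB1 replicate 2 there were 45 and 1, without JUND replicate 1 there were 1877 and 937, and without JUND replicate 2 there were 275 and 30.

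The 8-mers called higher in CREB1 were rich in the CRE centre and those called higher in JUND were not rich in TGAC. Of the 1732, 83.8 percent held CG and 23.3 percent held ACGT, against 38.2 and 1.98 percent of all kept 8-mers. Of the 1099 8-mers with ACGT outside the CRE, PAR and E-box lists, 357 (32.5 percent) were called higher in CREB1, against 2.69 percent of all 8-mers. Their median ranks were 1913 and 2027 for CREB1 and 17696 and 23595 for JUND over all 1099, and 0 were called higher in JUND. Of the 703, 1.14 percent held TGAC, against 3.95 percent of all kept 8-mers, and 0 held ACGT. Among the 703, 644 belonged to none of the site lists, close to the share over all kept 8-mers (57620 of 64454). Their bases on the primer-extended strand were 37.3 percent A, against 25.2 percent over all 8-mers. The sign of the difference was the same in the other orientation for 81.3 percent of the calls higher in CREB1 and 53.4 percent of those higher in JUND, where all 8-mers gave 53.9 percent. The part of orientation and base composition in the JUND calls was not tested.

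The largest differences in rank lay away from the top of the rankings. CGTCGCGT had the largest difference towards CREB1, 4.11 (SE 0.55, adjusted p = 0.000218, limma), with ranks of 917 and 712 for CREB1 and 57565 and 64053 for JUND. In the other orientation it ranked 1111 and 1688 for CREB1 and 2101 and 2217.5 for JUND. CCCTGACG followed at 4.04 (SE 0.56), with ranks of 1167 and 1076 against 61139.5 and 63618. Towards JUND the largest was CGGGATGG at -3.17 (SE 0.56, adjusted p = 0.00172, limma), with ranks of 62434.5 and 62450.5 for CREB1 and 7282.5 and 5208 for JUND, and it holds no bZIP half-site. Of the 10 largest differences towards CREB1, 9 kept their sign in the other orientation and 3 were called there. The 10 towards JUND include 1 palindrome. Of the other 9, 6 kept their sign in the other orientation and 0 were called there by limma.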

How the data were processed

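The 8-mer z-scores, a score per array, and the median signal and median local background of each probe, an intensity on a linear scale, were used as the authors deposited them. Per the labels' protocols, primer extension made the probes double-stranded and Alexa Fluor 647 reported bound protein. The making of the z-scores, the scanner and its software are not stated in the labels or headers. The z-score follows the strand made by primer extension, so 8-mers were counted on the reverse complement of the listed probe sequence, and 8-mers on fewer than 10 probes (1076, of which 409 on none) were left out.

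Ranks (ties averaged) were turned into normal scores and fitted in limma 3.58.1 (R 4.3.3) with one mean per group over 18 arrays, moderated with a mean-variance trend (9 residual and 22.2 prior degrees of freedom), after a test on simulated data. For log2 signal, background was subtracted and values under 50 set to 50. Precision is limited by 2 arrays per group. The named 8-mers were key sites, the 16 sites with TGA and TCA 2 bases apart, and the 10 highest per protein. They also took in the 10 largest called differences each way without overlap, and the 5 ranked highest by both. Single-base changes and outer bases were given outside that set. So were 8-mers chosen after their values were seen, ATGATTCA and CTGCGTCA among them. The proteins, lists and rules were chosen with earlier results of these data known. Alternatives covered scale, background, probe minimum, orientation, arrays fitted, weights and leaving out each array.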

Additional observations from a re-analysis of the deposited data

How the results depend on the processing

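The main counts were 1732 8-mers higher in CREB1, 703 higher in JUND, 9 of the 15 CRE core sites and 6 of the 16 AP-1 sites. No 8-mer called in the main analysis was called in the opposite direction under any alternative that kept separate orientations. With the replicate number as a block, called the replicate block here, there were 1625 and 646 calls, 9 and 6 in the lists. Deviations of same-numbered CREB1 and JUND arrays had a correlation of -0.07. With 2 arrays per group, this value cannot tell whether the numbers pair the arrays, and the main fit used no such block. Fitting the 4 arrays of both groups gave 10 AP-1 calls. Fitting the 6 arrays with unmodified DNA gave 3188 and 1459 calls, with 14 CRE core and 11 AP-1 sites, and array weights gave 1284 calls higher in JUND and 11 AP-1 sites. The deposited z-scores gave 5720 calls higher in CREB1, 15 CRE core sites and 13 AP-1 sites. Log2 median signal gave 4717 and 149 calls, 15 and 1 in the lists, and without saturated probes 4688 and 146, again 15 and 1. With normexp there were 4465 calls higher in CREB1, 15 CRE core and 12 AP-1 sites, and quantile normalization gave 1875 and 725 calls and 13 AP-1 sites. Keeping 8-mers on 1 or more probes gave 1 AP-1 call. The cause was not tested for any of these.

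Leaving out 1 array at a time gave 45 to 1877 calls higher in CREB1, 1 to 937 higher in JUND, 0 to 11 CRE core sites and 0 to 1 AP-1 sites, with fewer samples in the fit. Of the 45 named 8-mers uncalled on ranks, 14 stayed uncalled under all alternatives that tested them. Another 28 were called under some alternative in the direction of their main difference. In sign, 19 of the 45 turned under some alternative, and 3 of these were called there, towards CREB1. TGACGCAA gave 60.8 on z-scores, 2.97 on log2 signal, 2.23 with normexp and 2.57 without saturated probes. TGCGTCAT gave 58.2, 2.68, 1.62 and 2.68 in the same order, and TTACGTCA gave 83.5, 3.29, 2.35 and 3.17. The share of JUND-bound 8-mers also bound by CREB1 was 75.6 percent at a z-score of 4, 64.0 percent at 3 and 71.9 percent at 6. Of the named 8-mers, 8 of the 12 called higher in CREB1 and 0 of the 16 called higher in JUND stayed past the threshold under all of the up to 18 alternatives that tested them. JUND replicate 2 had the lowest median signal, and without it there were 275 and 30 calls.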

Other observations

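E-box 8-mers, with the CACGTG known from bHLH factors, shared the ACGT centre of the CRE and were higher in the CREB1 ranking. The 48 of them had median ranks of 1585 and 1626 for CREB1 and 7846 and 14849 for JUND, with a median difference of 0.96. Of the 48, 4 were called higher in CREB1 (8.33 percent, against 2.69 percent of all 8-mers) and 0 higher in JUND (against 1.09 percent). With 1 array at a time left out, 0 to 10 members of the list were called higher in CREB1. The palindrome CCACGTGG ranked 2223 and 1284 for CREB1 and 22747.5 and 17118 for JUND (difference 1.43, SE 0.47, adjusted p = 0.0787, limma).

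Some GC-box 8-mers were called the other way, each in a single orientation. Of 87 with GGGCGG or its complement, 7 were called higher in JUND and 0 higher in CREB1. That is 8.05 percent higher in JUND, against 1.09 percent of all 8-mers. The 7 included both readings of GGGCGG, and not all of them stood high for JUND. CGGGCGGC ranked 21182 and 37357.5 for JUND and 63585 and 62388 for CREB1. ACCCGCCC ranked 98 and 47 for JUND and 4973.5 and 26701.5 for CREB1 (difference -2.26, SE 0.51, adjusted p = 0.0105, limma). In the other orientation, GGGCGGGT, it ranked 15024 and 40462 for JUND and 24419.5 and 23906.5 for CREB1, and 0 of the 7 were called there by limma, with 5 of 7 keeping the sign. The GC-box list was not a site list for bZIP proteins, and these 8-mers were singled out after their values were seen.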
